A study of Mus musculus with 18 samples.

Results

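Hippocampal gene expression in stressed mice that trained aerobically was compared with that in 2 groups of mice that did not train. Each library came from the hippocampus of 1 adolescent male wild-type C57BL/6J mouse. Control mice had no treatment. CSDS mice went through chronic social defeat stress, in which the animal repeatedly enters the cage of an aggressive resident. The third group, called trained here, went through the same defeat and also received aerobic exercise, which began in the week before the defeat and lasted through it. Control and CSDS mice, for which the labels name no training, are together called sedentary. The comparison used 17 of the 18 libraries: 6 trained, 6 CSDS and 5 control. It took the trained group against the mean of the 2 sedentary group means, and then looked for genes that differed from both sedentary groups in the same direction. Every trained mouse was also defeated and no group trained without defeat, so training alone and training during defeat cannot be told apart. The labels put all libraries in 1 batch and describe the mice of a group as independent. They do not state the form of the exercise, its dose, or how long after the last bout or behavioural test the tissue was taken.

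Aerobic exercise is known to raise neurotrophic factors, blood flow and the production of new granule neurons in the dentate gyrus, and it improves mood-related behaviour in rodents. Repeated social defeat activates the hypothalamic-pituitary-adrenal axis and is used as a model of depression. Immediate early genes such as Fos, Junb and Egr2 encode short-lived regulators that neurons switch on within minutes of strong activity, so their level reflects recent activity. In bulk tissue, fewer cells of a type and less RNA per cell cannot be told apart.

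Libraries held 18911080 to 24136591 estimated counts and 21778 to 22738 detected genes, and 16833 genes passed the filter on low counts. Levels are given in CPM, which are counts scaled to library size with TMM factors. Control replicate 2 was left out because its markers did not match hippocampus. It had 10.4 CPM of Prox1, made by dentate granule cells, where the 17 libraries used had 83.5 to 145 CPM. It had 259 CPM of Lamp5, a marker of neocortical neurons, where they had 25.7 to 42.8 CPM. Trained replicate 4 stood apart from the other trained libraries, and neighbouring tissue varied. Tcf7l2, a transcription factor of thalamic neurons, was at 143 CPM in trained replicate 6 and 33.4 CPM in trained replicate 3 (trained median 6.04 CPM). It was at 70.1 CPM in control replicate 3 and 28.8 CPM in control replicate 1, and between 4.05 and 5.94 CPM in CSDS libraries. Ttr, the transport protein made by choroid plexus, spanned 26.5 to 6149 CPM in trained and 51.0 to 7951 CPM in CSDS libraries.

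Genes named as higher and as lower differed in base composition, and 6 sequences, chosen after their values were seen, show this. Each is a stretch of 90 bases of a transcript from the GENCODE M21 set on GRCm38, written 5′ to 3′ on the strand of the gene, with G and C in capitals. Malat1 and Kcnq1ot1 are noncoding RNAs and Cadm2 encodes a synaptic adhesion molecule; these 3 were higher in trained mice. Pdgfa, Akt1s1 and Klf15 encode a growth factor, a subunit of the mTORC1 kinase complex and a transcription factor; these 3 were lower. Akt1s1 was named from the mTOR pathway list, and the other 5 are among the 12 genes in each direction with the smallest p-values.
Malat1, its only exon, chr19:5799136-5799225, minus strand: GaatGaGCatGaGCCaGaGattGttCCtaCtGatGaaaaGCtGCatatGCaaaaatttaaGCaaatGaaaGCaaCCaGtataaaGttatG
Kcnq1ot1, its only exon, chr7:143249959-143250048, minus strand: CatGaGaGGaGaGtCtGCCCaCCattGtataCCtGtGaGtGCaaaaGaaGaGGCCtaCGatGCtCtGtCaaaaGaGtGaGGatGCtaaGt
Cadm2, coding exon 8, chr16:66747243-66747332, minus strand: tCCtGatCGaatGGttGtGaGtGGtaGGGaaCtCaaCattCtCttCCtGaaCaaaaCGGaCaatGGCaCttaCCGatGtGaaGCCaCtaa
Pdgfa, coding exon 4, chr5:138986239-138986328, minus strand: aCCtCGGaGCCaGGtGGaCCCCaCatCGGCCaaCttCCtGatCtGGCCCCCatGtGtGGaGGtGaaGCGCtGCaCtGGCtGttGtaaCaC
Akt1s1, coding exon 2, chr7:44852724-44852813, plus strand: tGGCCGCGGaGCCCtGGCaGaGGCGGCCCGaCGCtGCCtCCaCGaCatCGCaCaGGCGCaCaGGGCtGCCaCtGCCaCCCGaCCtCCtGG
Klf15, coding exon 3, chr6:90466939-90467028, plus strand: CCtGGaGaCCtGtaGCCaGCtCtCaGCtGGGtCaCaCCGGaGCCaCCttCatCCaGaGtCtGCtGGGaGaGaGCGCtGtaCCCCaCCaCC
The GC content of these stretches was 35.6% in Malat1, 47.8% in Kcnq1ot1 and 45.6% in Cadm2, against 61.1% in Pdgfa, 74.4% in Akt1s1 and 63.3% in Klf15. Over the whole transcripts shown it was 42.5%, 40.3% and 36.9% for the first 3 genes and 52.1%, 63.3% and 54.9% for the last 3.

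The question was which hippocampal genes set trained mice apart from both kinds of sedentary mice. No gene passed an adjusted p of 0.05 in edgeR's quasi-likelihood test of trained against the sedentary mean (0 of 16833, 0%), although the smallest adjusted p was 0.0796. At an unadjusted p under 0.05 there were 3320 genes (19.7%), where 5% of the genes tested make 842. Of these, 1910 were higher in trained mice (11.3% of the genes tested) and 1410 lower (8.38%). Against CSDS mice alone 2987 genes reached that level, against control mice 1974, and between the 2 sedentary groups 401, each with 0 adjusted calls. In both comparisons together, with the same sign, 718 genes were higher (4.27%) and 486 lower (2.89%). No gene passed when the larger of its 2 p-values was adjusted (smallest adjusted p = 0.632, edgeR). These 2 comparisons share the trained libraries, so their agreement in sign, in 13873 genes, is partly built in.

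The number of calls depended on the tool and on single libraries. With DESeq2, 548 genes passed (294 higher, 254 lower). With limma voom and quality weights, 3684 passed (1758 higher, 1926 lower). None of the tools called a gene in the test against both groups. Without trained replicate 4, edgeR called 833 genes higher (4.96%) and 1428 lower (8.5%) against the sedentary mean, 1529 genes against CSDS mice and 24 against control mice. Without control replicate 6 it called 17 genes, and without CSDS replicate 5 it called 81 against CSDS mice. Leaving out trained replicate 4 or control replicate 6 also gave the highest counts of genes whose trained libraries all lay outside the sedentary range. These were 299 and 62 genes, against 14 with all 17 libraries and 22 without CSDS replicate 5.

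Base composition moved with the comparison. The slope of gene level on the GC content of a gene's transcripts, per 10 percentage points, was −0.168 ± 0.214 on the log2 scale in trained libraries (SD, n = 6) and 0.0919 ± 0.163 in sedentary ones (n = 11), a difference of −0.260 (exact two-sided permutation p = 0.0137 over 12376 regroupings). It was between −0.460 and −0.121 in 5 trained libraries and 0.198 in trained replicate 4. Sedentary libraries spanned −0.167 to 0.3001, so the groups overlapped. Without trained replicate 4 the difference was −0.334 (exact two-sided permutation p = 0.00114 over 4368 regroupings). That library had the only positive slope among trained libraries. A larger difference and a smaller p without it are therefore partly built in, and this p is only a description. The median log2 fold change of genes went from 0.58 below 35% GC (33 genes) to 0.37 at 35 to 40%, −0.03 at 50 to 55% and −0.43 above 65% (101 genes). The order was the same against CSDS and against control mice.

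Genes that differed from both groups followed the same axis: their median GC content was 43.0% for the 718 higher genes and 57.9% for the 486 lower genes, against 50.5% over all genes with a value. Across 16510 genes the log2 fold change had a Pearson correlation of −0.545 with GC content, given as a description since genes share libraries. Removing each library's smooth trend on GC content left 962 genes higher (5.71%) and 667 lower (3.96%) at an unadjusted p under 0.05, 0 adjusted calls and a smallest adjusted p of 0.0779 in edgeR. Of the genes that differed from both groups, 171 higher and 128 lower kept that status after the correction, with median GC contents of 47.1% and 54.6%. The part of base composition in any gene's difference was not tested, and GC-corrected values are therefore given beside the counted ones.

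**Figure D1:**
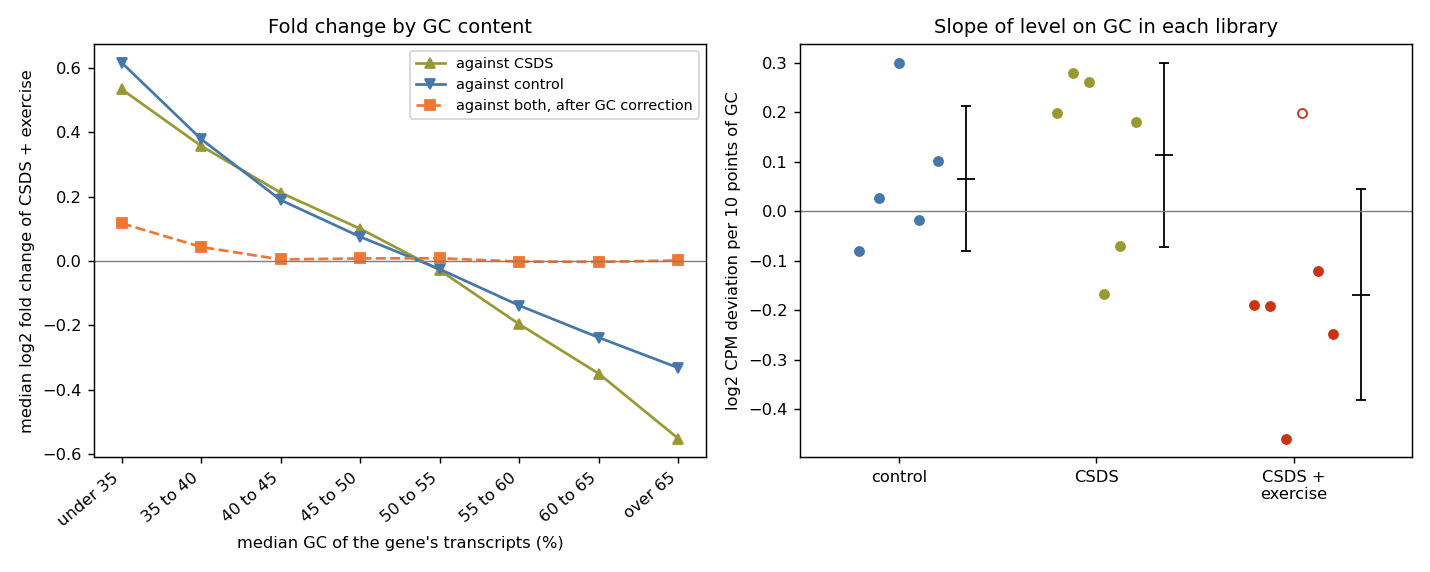
Left, the median log2 fold change of trained mice (vertical axis) in bins of transcript GC content, taken as the median over each gene's transcripts (horizontal axis, percent), against CSDS, against control, and against both after the GC correction. Right, the slope of gene level on GC content per 10 percentage points in each of the 17 libraries, with mean and SD; the open point is trained replicate 4, at 0.198, and the other 5 trained libraries lie between −0.460 and −0.121.

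The 12 named genes with the smallest p among those higher in trained mice included genes of adhesion, lipid and inositol biology. Dgkh encodes diacylglycerol kinase eta, which turns diacylglycerol into phosphatidic acid. It spanned 108 to 145 CPM in trained libraries (median 136), 91.2 to 112 CPM in CSDS libraries (median 103), and lay at 106, 93.2, 95.3, 103 and 112 CPM in the control libraries. The lowest trained library lay within the sedentary range and the other 5 above it. The difference was 0.39 ± 0.07 on the log2 scale (log2 fold change ± SE) and the adjusted p 0.0796 by edgeR's quasi-likelihood test; after the GC correction it was 0.36.

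Cadm2, the adhesion molecule shown above, ranged from 157 to 280 CPM in trained mice (median 194) and from 113 to 165 CPM in CSDS mice (median 136). Control libraries were at 153, 115, 120, 135 and 142 CPM, all below the lowest trained library, while the CSDS and trained ranges overlapped. Its log2 fold change was 0.57 ± 0.11, or 0.45 after the GC correction. Slc2a13, which encodes a proton-coupled myo-inositol transporter, was at 92.0 to 124 CPM in trained, 77.1 to 95.3 CPM in CSDS and 72.8 to 94.8 CPM in control libraries (0.36, or 0.22 after the correction). Mboat2, an enzyme that puts fatty acids back onto lysophospholipids, did not overlap: all 6 trained libraries lay between 51.8 and 67.7 CPM, above 41.8 to 50.3 CPM in CSDS and 42.6 to 51.3 CPM in control libraries. Its log2 fold change was 0.34 ± 0.07, and 0.22 after the correction.

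Of these 12 higher genes, 3 were long noncoding RNAs that stay in the nucleus. Malat1 spanned 175 to 418 CPM in trained libraries (median 234) and 98.5 to 228 CPM in CSDS libraries (median 180). Control libraries were at 157, 100, 97.0, 104 and 95.3 CPM, all below every trained library. The log2 fold change was 0.86 ± 0.18 (1.18 against control, 0.54 against CSDS) and 0.63 after the GC correction. Kcnq1ot1, the imprinted RNA that silences neighbouring genes on the paternal chromosome, was at 5.21 to 12.7 CPM in trained, 4.08 to 6.17 CPM in CSDS and 3.68 to 4.74 CPM in control libraries (0.79 ± 0.15, corrected 0.52). Snhg14, the host of small nucleolar RNAs whose far end runs antisense to Ube3a, was at 24.9 to 58.3 CPM in trained, 19.1 to 33.1 CPM in CSDS and 16.9 to 21.4 CPM in control libraries (0.76 ± 0.15, corrected 0.60). Trained and control libraries did not overlap in either RNA, and trained and CSDS libraries did.

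Other nuclear RNAs, named after their values were seen, did not all behave alike. Snhg11 had a log2 fold change of 0.82 (0.91 after the GC correction) and Meg3, an imprinted RNA, 0.80 (1.00), although Meg3 missed an unadjusted p of 0.05 against CSDS mice. Neat1, the scaffold of paraspeckles, was at 50.05 to 102 CPM in trained and 32.9 to 91.1 CPM in sedentary libraries (0.23). Kcnq1ot1 and Snhg14 overlap genes on the other strand, and the strand setting of the counting is not given in the sources used here, so their counts are uncertain.

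Among chromatin regulators, Tet2, an enzyme that oxidises methylated cytosine, spanned 16.8 to 23.4 CPM in trained libraries (median 21.1) and 15.5 to 17.1 CPM in CSDS libraries (median 16.7). Control libraries were at 15.2, 11.7, 14.9, 15.1 and 17.5 CPM. The lowest trained library lay inside the sedentary range. Its log2 fold change was 0.40 ± 0.08, and 0.28 after the GC correction. Of 45 chromatin and DNA methylation enzymes, 7 were higher and 3 lower at an unadjusted p under 0.05, where 11.3% and 8.38% of all genes were, and the median log2 fold change was 0.01 (0.02 over all genes). Against both groups 6 of the 45 were higher and 1 lower, where 4.27% and 2.89% of all genes were. Those that differed from both groups included Tet1, Tet2, the Polycomb subunits Ezh2 and Suz12 and the H3K27 demethylase Kdm6a, which were higher, and the deacetylase Hdac5, which was lower. Ezh2 was at 4.36 to 5.71 CPM in trained and 2.88 to 4.81 CPM in sedentary libraries (0.45, corrected 0.30). Suz12 went from 0.31 to 0.01 with the correction and Hdac5 from −0.35 to −0.11. Tet1, Suz12 and Hdac5 were named after their values were seen.

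The rest of these 12 genes included Ttc14, a tetratricopeptide repeat gene (0.77, corrected 0.56), and Amy1, salivary amylase, at 3.92 to 10.8 CPM in trained and 2.11 to 5.03 CPM in sedentary libraries (1.10 ± 0.23, corrected 0.89). Amy1, the pheromone receptor gene Vmn2r115 (0.59, corrected 0.28) and the odorant receptor gene Olfr986 (0.66, corrected 0.48) belong to multigene families with close copies, so reads may be split among members and these values are uncertain. All 12 genes kept their sign under the GC correction, each with a smaller difference than as counted. Without trained replicate 4, edgeR called all 12, where 4.96% of all genes were called higher, and 0 of the 12 once the GC correction was added. The 12 were chosen by their p in a fit that held the same libraries, so the calls without the correction are partly built in.

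Among the 12 genes lower in trained mice, Klf15, a transcription factor induced by glucocorticoids, spanned 15.3 to 20.3 CPM in trained libraries (median 16.5) and 21.7 to 33.1 CPM in CSDS libraries (median 24.99). Control libraries were at 18.6, 22.7, 27.9, 24.7 and 25.6 CPM. All trained libraries lay below all CSDS libraries, and control replicate 1 lay within the trained range. The log2 fold change was −0.53 ± 0.10 (adjusted p = 0.0796, edgeR) and −0.42 after the GC correction. Fkbp5, a chaperone that dampens the glucocorticoid receptor, was at −0.04, and Sgk1, a kinase, at −0.12 against CSDS and −0.94 against control. Sgk1 was at 57.2 to 121 CPM in trained, 69.9 to 110 CPM in CSDS, and 162, 199, 170, 108 and 127 CPM in control libraries, so trained mice did not stand apart from both groups. Of 27 glucocorticoid-responsive genes, 2 were higher and 8 lower (29.6%) at an unadjusted p under 0.05, where 11.3% and 8.38% of all genes were. Klf15 was the 1 that differed from both groups, where 2.89% of all genes were lower in that way.

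Pdgfa, the growth factor that drives division of oligodendrocyte precursors, separated completely. Trained libraries spanned 16.2 to 19.1 CPM (median 17.2) and CSDS libraries 20.5 to 26.1 CPM (median 23.1), with control libraries at 22.2, 19.7, 28.0, 22.7 and 26.9 CPM. All 6 trained libraries lay below all 11 sedentary libraries. This gave a log2 fold change of −0.44 ± 0.08, and −0.21 after the GC correction. Its receptor gene Pdgfra, a marker of those precursors, was at 67.9 to 86.7 CPM in trained and 59.2 to 78.1 CPM in sedentary libraries (0.16). Sox10, the transcription factor of the oligodendrocyte lineage, was at −0.49 (corrected −0.15), and Mbp, a myelin protein, at −0.19.

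Lurap1l, a gene of little known function, was at 21.5 to 33.9 CPM in trained (median 28.8) and 36.3 to 43.5 CPM in CSDS libraries (median 37.2), and at 40.7, 37.6, 36.2, 39.1 and 33.6 CPM in control libraries. Only control replicate 6 overlapped the trained range. It was the 1 gene of the 12 whose difference was larger after the GC correction, at −0.55 against −0.43 ± 0.09 as counted. The others included Slc9a3r2, a scaffold for membrane transporters (−0.43, corrected −0.19), Slc5a5, the sodium-iodide symporter (−0.47, corrected −0.25), and Pxdc1 (−0.50, corrected −0.41). Rilpl2, which takes part in transport to cilia, was at −0.41 (corrected −0.38), and Fbll1, a fibrillarin-like gene, at −0.58 (corrected −0.26). Hspbp1, a co-chaperone of HSP70, was at −0.34 as counted and −0.07 after the correction. Scand1, a zinc finger cofactor whose transcripts hold 68.4% G and C, was at −0.53 and −0.08 after it. Capn10, a calpain protease, was at −0.38 (corrected −0.20) and the centrosomal gene Ccdc61 at −0.44 (corrected −0.19). All 12 genes kept their sign, and 9 kept an unadjusted p under 0.05 after the correction.

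**Figure D2:**
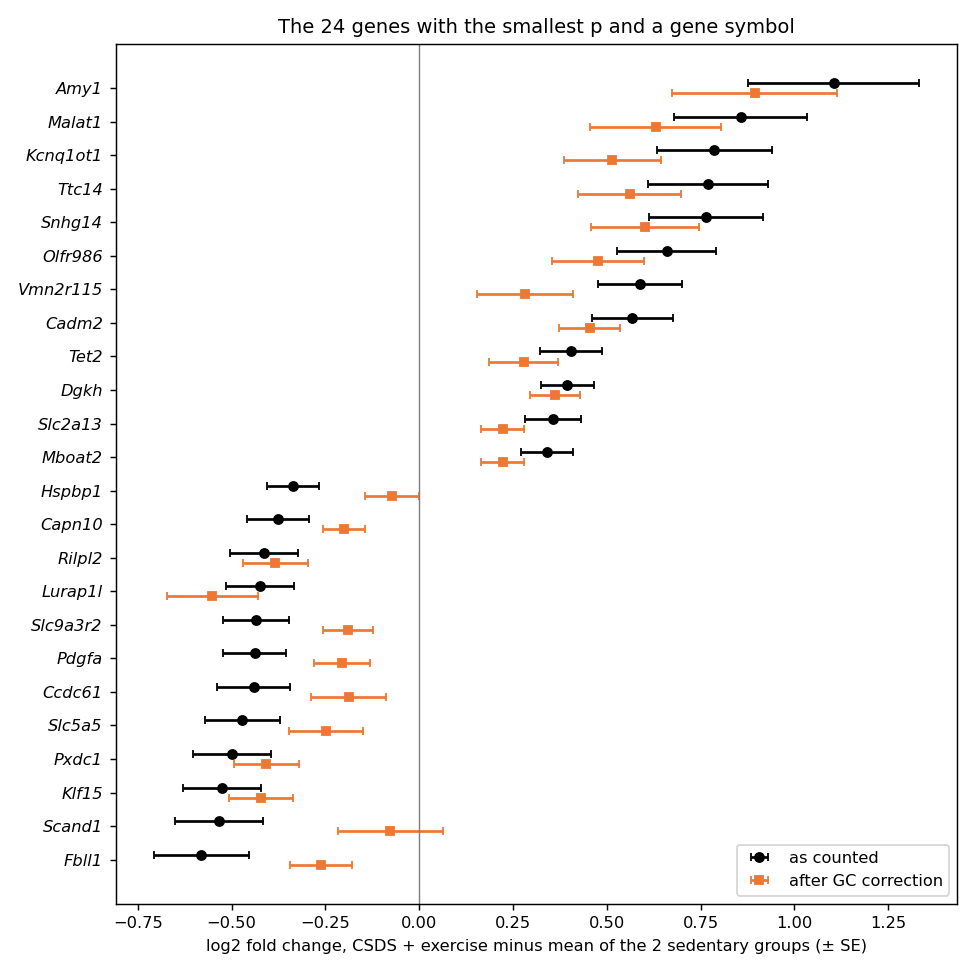
Log2 fold change with SE of trained mice against the mean of the sedentary groups (horizontal axis) for the 24 named genes with the smallest p, as counted and after the GC correction. The 12 higher genes ran from 0.34 to 1.10, and Hspbp1 and Scand1 lay nearest 0 after the correction.

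**Figure D3:**
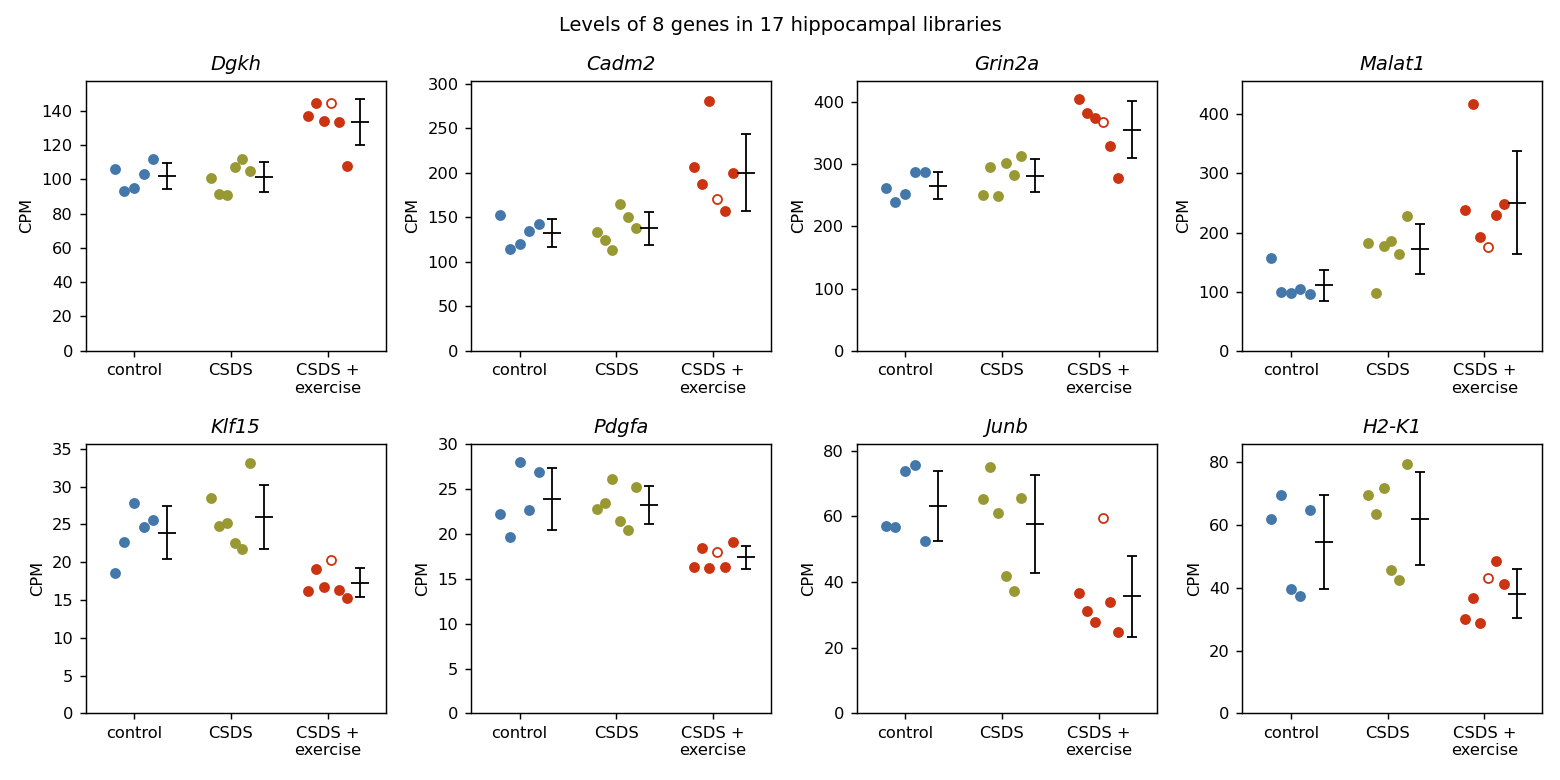
CPM (vertical axes, starting at 0) of 8 genes in the 17 libraries by group, with mean and SD beside the points; the open point is trained replicate 4. Pdgfa separates all trained from all sedentary libraries, and in Junb trained replicate 4, at 59.4 CPM, lies above the other trained libraries.

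In all, 14 genes had all trained libraries outside the range of the sedentary ones, 10 above (0.0594% of the genes tested) and 4 below (0.0238%). Beside Mboat2, Vmn2r115 and Olfr986, the higher genes included Nf1, the Ras GTPase-activating protein neurofibromin, at 107 to 127 CPM in trained (median 115) and 77.4 to 102 CPM in CSDS libraries, with controls at 88.1, 104, 88.5, 93.2 and 102 CPM (0.31 ± 0.07, corrected 0.17). Shld2, a subunit of the shieldin complex of DNA repair, was at 3.88 to 5.41 against 2.64 to 3.64 CPM over all sedentary libraries (0.42). Zfp652, a zinc finger gene, was at 65.1 to 69.8 against 56.6 to 64.7 CPM (0.17). Below the sedentary range, beside Pdgfa, lay Pgp, the phosphatase that removes phosphoglycolate, at 59.97 to 70.1 CPM against 73.3 to 99.4 CPM (−0.30 ± 0.07, corrected −0.14). Tmem238 (−0.57) and Tmem246, which takes part in GPI anchor processing (−0.14), were the others. The remaining higher genes, outside the rule for named genes, were Zfp558, Dusp11, Zyg11b and Pias1.

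Immediate early genes had mostly negative values in trained mice. Of 35 listed and tested, 30 had a negative log2 fold change and 19 were lower at an unadjusted p under 0.05 (54.3%, against 8.38% of all genes), with 0 higher. The median was −0.35 (−0.25 against CSDS and −0.40 against control), where the median over all genes was 0.02. After the GC correction it was −0.20, with 12 lower and 1 higher at that threshold, which 3.96% and 5.71% of all genes then reached. The list was among those that earlier results of these data showed to be lower, so its direction is a description.

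Junb, a subunit of the AP-1 transcription factor, spanned 24.8 to 59.4 CPM in trained libraries (median 32.5) and 37.3 to 75.04 CPM in CSDS libraries (median 63.2), and lay at 57.0, 56.7, 73.8, 75.6 and 52.6 CPM in control libraries. The highest trained value was that of replicate 4, and the groups overlapped. The log2 fold change was −0.76 ± 0.18 (−0.99 without trained replicate 4) and −0.45 after the GC correction. Jund, its constitutive relative, was at 75.5 to 123 CPM in trained, 93.5 to 189 CPM in CSDS and 97.6 to 162 CPM in control libraries (−0.61, corrected −0.17). Egr2, a zinc finger factor, was at 0.513 to 1.74 CPM in trained (median 0.997) and 0.510 to 3.28 CPM in CSDS libraries (median 2.50), with controls at 1.49, 2.78, 4.14, 5.47 and 4.07 CPM. Its difference was −1.35 ± 0.36 and barely moved with the correction, at −1.31. Jun (−0.40), Fosl2 (−0.44), Egr4 (−0.78) and Gadd45g (−0.48), named after their values were seen, complete the 7 that differed from both groups at an unadjusted p under 0.05, where 2.89% of all genes were lower in that way.

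Other early genes missed an unadjusted p of 0.05 against at least 1 of the sedentary groups. Fos was at 4.87 to 9.05 CPM in trained (median 6.46) and 2.97 to 12.8 CPM in CSDS libraries (median 8.81), with controls at 11.8, 20.6, 13.3, 16.8 and 9.17 CPM. Trained libraries lay below every control library and inside the CSDS range, with a log2 fold change of −0.40 against CSDS and −1.11 against control. Arl4d, a small GTPase, was at −0.18 and −0.87 in the same order. Arc, which controls the trafficking of AMPA receptors and was named after its value was seen, was at −0.58 and −0.93. Without trained replicate 4, edgeR called 13 of the 35 genes lower, and 8.5% of all genes.

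Promoters of this group were searched because cyclic AMP signalling acts on many of them through the CRE, the palindrome TGACGTCA. RefSeq promoters (250 bases before to 50 after the start, GRCm38.p6) were found for 27 of the 35 genes. The CRE was present in 3 of 27 (11.1%), against 507 of all 27025 promoters (1.88%). All motifs were searched on both strands. The shorter element TGACG, which the CRE contains, was present in 16 of 27 (59.3%) against 21% of all. The CArG box bound by serum response factor was in 1 of 27 (3.7%) against 1.57%. The windows with a CRE are shown with the CRE in capitals and 40 bases on each side; in the genes' own orientation it ended 158, 135 and 18 bases before the start.
Btg2, chr1:134079274-134079361, minus strand: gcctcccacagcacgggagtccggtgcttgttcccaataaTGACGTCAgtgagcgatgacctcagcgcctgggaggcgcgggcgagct
Dusp1, chr17:26508568-26508655, minus strand: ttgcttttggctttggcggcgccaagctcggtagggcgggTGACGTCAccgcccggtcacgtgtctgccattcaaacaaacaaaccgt
Arl4d, chr11:101665475-101665562, plus strand: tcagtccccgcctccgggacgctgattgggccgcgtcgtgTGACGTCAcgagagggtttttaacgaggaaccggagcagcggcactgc
Dusp1, a phosphatase of MAP kinases, was at −0.42, and Btg2, an antiproliferative gene, at −0.19; both were named after their values were seen. These 3 genes had an unadjusted p under 0.05 against the sedentary mean, and none of the 3 had it against both groups.

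Genes of class I antigen presentation also had mostly negative values. Of 21 tested, 18 had a negative log2 fold change and 10 were lower at an unadjusted p under 0.05 (47.6%, against 8.38% of all genes). Of these, 5 were lower against both groups, as were 2.89% of all genes. After the GC correction 8 were lower and 0 higher, where 3.96% and 5.71% of all genes were. Against both groups 3 were then lower, as were 204 of all 16833 genes. The median of −0.32 was −0.31 after the GC correction. H2-K1, a classical class I heavy chain, spanned 28.8 to 48.6 CPM in trained (median 39.1) and 42.4 to 79.1 CPM in CSDS libraries (median 66.4), and lay at 61.8, 69.6, 39.6, 37.4 and 64.6 CPM in control libraries. Control replicates 4 and 5 and CSDS replicates 4 and 5 lay within the trained range. The difference was −0.61 ± 0.17, corrected −0.48. H2-T23, a nonclassical chain (−0.54), H2-Q6 (−1.27, at 1.09 to 3.47 CPM in trained and 1.78 to 7.46 CPM in sedentary libraries), H2-Q7 (−1.19) and the peptide-loading chaperone Tapbp (−0.42) were the others that differed from both groups. Control replicates 4 and 5 and CSDS replicates 4 and 5 were also the lowest sedentary libraries for H2-T23 (11.4 to 11.8 CPM) and H2-Q6 (1.78 to 2.32 CPM). Both spans lay within the trained ranges. The other sedentary libraries were at 16.2 to 22.6 and 4.28 to 7.46 CPM. Tapbp did not follow this split, with 46.1 CPM in control replicate 4. The part of these libraries in the list values was not tested. H2 genes are near-identical copies of one another, so the split of reads among them is uncertain. H2-Q7 was named after its value was seen.

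Interferon-stimulated genes had mostly negative values too. Of 36, 33 had a negative log2 fold change, and 9 were lower (25%) and 1 higher (2.78%) at an unadjusted p under 0.05, where 8.38% and 11.3% of all genes were. The median was −0.42 before and after the GC correction. Only Lgals3bp, a secreted scavenger-receptor protein, differed from both groups, where 2.89% of all genes were lower in that way. It was at 16.7 to 52.0 CPM in trained, 20.03 to 177 CPM in CSDS and 35.5 to 134 CPM in control libraries (−1.10 ± 0.37). Irf7, the master regulator of the response, was at 2.12 to 5.64 CPM in trained and 2.08 to 18.7 CPM in CSDS libraries, with controls at 8.19, 5.91, 2.85, 2.55 and 8.91 CPM (−1.16). Its trained libraries were all within the sedentary range. Control replicates 4 and 5 and CSDS replicates 4 and 5, at 2.08 to 2.85 CPM, were again the lowest sedentary libraries for Irf7. Lgals3bp did not follow this split, with 61.2 CPM in control replicate 4 and 49.3 CPM in control replicate 3. Without trained replicate 4, edgeR called 5 of the 21 class I genes lower and 0 of the 36 interferon-stimulated genes, where 8.5% of all genes were called lower.

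Subunits of GABA-A receptors, the chloride channels of fast inhibition, were all at positive values. Of 13 subunits, 13 had a positive log2 fold change and 5 were higher at an unadjusted p under 0.05 (38.5%, against 11.3% of all genes), with a median of 0.25. The median GC content of this list was 44.1%, and after the GC correction 10 were positive and the median was 0.10. At an unadjusted p under 0.05, 2 were then higher and 0 lower, where 5.71% and 3.96% of all genes were. Gabra4, a subunit of extrasynaptic receptors in the dentate gyrus, was at 75.8 to 129 CPM in trained (median 82.1), 53.6 to 84.8 CPM in CSDS and 60.4 to 84.6 CPM in control libraries, so the groups overlapped (0.44 ± 0.13, corrected 0.27). Gabra4, Gabrb1 (0.31, corrected 0.14) and Gabrg1 (0.65, corrected 0.15) differed from both groups, where 4.27% of all genes were higher in that way. Gabra4 was at 129 and 122 CPM in trained replicates 3 and 6, and at 75.8 to 83.8 CPM in the other trained libraries. Gabrg1 was also highest in replicates 3 and 6, at 30.9 and 26.1 CPM. These were the trained libraries with the most Tcf7l2, at 33.4 and 143 CPM, and the part of thalamic tissue in these values was not tested.

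Ionotropic glutamate receptors had values of both signs: 11 of 23 were positive and the median was −0.03. At an unadjusted p under 0.05, 4 were higher (17.4%, against 11.3% of all genes) and 1 lower (4.35%, against 8.38%). Grin2a, the subunit that marks mature NMDA receptors, was the clearest member. It spanned 277 to 405 CPM in trained libraries (median 370) and 249 to 313 CPM in CSDS libraries (median 289), with controls at 261, 239, 251, 287 and 288 CPM. The log2 fold change was 0.38 ± 0.08 (adjusted p = 0.0796, edgeR) and 0.39 after the GC correction. Grik2, a kainate receptor subunit, was at 0.29 (corrected 0.12). Grin2b was at 507 to 699 CPM in trained and 407 to 646 CPM in sedentary libraries (0.26) and differed from control mice more than from CSDS mice (0.37 and 0.15).

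Factors linked to exercise had values of both signs, with a median log2 fold change of 0.00. Of 39 tested, 4 were higher (10.3%, against 11.3% of all genes) and 5 lower (12.8%, against 8.38%) at an unadjusted p under 0.05. After the GC correction these were 1 and 2, where 5.71% of all genes were higher and 3.96% lower. Bdnf, the neurotrophin most often tied to exercise, spanned 25.8 to 36.5 CPM in trained (median 29.3) and 22.2 to 35.6 CPM in CSDS libraries (median 26.3), with controls at 28.9, 19.9, 26.1, 33.2 and 23.9 CPM. The trained range overlapped those of both sedentary groups (0.17 ± 0.11, and −0.07 after the GC correction). The growth factors Igf1 (0.29) and Vegfa (−0.18), the irisin precursor Fndc5 (0.04), the mitochondrial coactivator Ppargc1a (0.13) and the lactate receptor Hcar1 (0.04) also missed an unadjusted p of 0.05.

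Members that differed from both groups were Klf15, the integrin subunit Itgav (0.39, corrected 0.35), the secreted factor Metrnl (−0.42, corrected −0.22) and the nuclear receptor Esrra (−0.30, corrected 0.02). These were 1 higher and 3 lower of 39, where 4.27% and 2.89% of all genes differed in that way. Itgav, part of receptors for the extracellular matrix, was at 41.2 to 76.1 CPM in trained and 35.2 to 49.2 CPM in sedentary libraries. Of 14 neurotrophins and receptors, 1, the receptor Ntrk3, was higher than the sedentary mean at an unadjusted p under 0.05 (0.20), a share of 7.14% against 11.3% of all genes, and 0 differed from both groups.

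Markers of new and mature granule neurons were followed next. Dcx, the microtubule protein of immature neurons, was at 13.8 to 21.9 CPM in trained (median 15.97) and 10.4 to 15.6 CPM in CSDS libraries (median 12.7), with controls at 12.6, 9.53, 11.6, 15.0 and 12.6 CPM. Trained libraries were shifted upward but overlapped both groups (0.39 ± 0.12, corrected 0.16). Of 33 neurogenesis genes, 2 were higher (6.06%, against 11.3% of all genes) and 8 lower (24.2%, against 8.38%) at an unadjusted p under 0.05, and the median of the list was −0.03. After the GC correction 1 was higher and 2 were lower, at a threshold that 5.71% and 3.96% of all genes then reached. Of 18 dentate granule cell markers, 5 were higher (27.8%, against 11.3% of all genes) and 0 lower (8.38% of all genes). With the correction 3 were higher and 1 lower, where 5.71% and 3.96% of all genes were. As counted, 3 of the 18 markers were higher against both groups, where 4.27% of all genes were. These were Stxbp6, which binds SNARE proteins (0.36, corrected 0.29), the guidance receptor Sema5a (0.33, corrected 0.35) and Dock10, a guanine nucleotide exchange factor (0.29, corrected 0.16). Each was highest in trained replicate 4, at 111, 192 and 108 CPM in the same order, and so was Prox1, at 145 CPM. Without that library, 3 of the 18 markers were higher and 6 lower at an unadjusted p under 0.05. Over all 16801 genes then tested, 2391 were higher and 3102 lower at that threshold, 32.7% in either direction. edgeR then called 1 marker higher and 3 lower, where 4.96% and 8.5% of all genes were called. The median of the list was 0.02, and the mean level of the whole list lay between 5.27 and 6.10 log2 CPM in trained and 5.34 and 5.80 in sedentary libraries.

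Markers of glia and of inhibitory neurons were also counted. Slc4a4, the astrocytic sodium bicarbonate cotransporter, was at 178 to 277 CPM in trained, 154 to 186 CPM in CSDS and 156 to 193 CPM in control libraries (0.34 ± 0.09, corrected 0.30). Gfap, the astrocyte intermediate filament, was at −0.08. Fjx1 (−0.49) and Sox9 (−0.31), from the same list as Slc4a4, went the other way. Among 24 astrocyte genes, 2 were higher (8.33%, against 11.3% of all genes) and 2 lower (8.33%, against 8.38%) at an unadjusted p under 0.05. The median of this list was −0.002. After the correction 3 were higher and 3 lower, where 5.71% and 3.96% of all genes were. Tmem119, a surface protein of microglia, was at 20.7 to 27.7 CPM in trained and 24.02 to 36.1 CPM in sedentary libraries (−0.39, corrected −0.11), while 1 of 26 microglial genes was higher (3.85%, against 11.3% of all genes) and 4 were lower (15.4%, against 8.38%) at an unadjusted p under 0.05. After the correction 0 were higher and 1 lower, where 5.71% and 3.96% of all genes were. Slc32a1, the vesicular GABA transporter, was at 72.0 to 89.7 CPM in trained and 79.4 to 126 CPM in sedentary libraries (−0.36, corrected −0.04). Of 30 interneuron genes 9 were lower (30%, against 8.38% of all genes) and 1 higher (3.33%, against 11.3%) at an unadjusted p under 0.05, and 4 of the lower ones differed from both groups, where 2.89% of all genes did. After the correction 5 were lower and 1 higher, where 3.96% and 5.71% of all genes were. Against both groups 1 was then lower, as were 204 of all 16833 genes.

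Genes of collagens and the basement membrane had mostly negative values. Of 56 collagen and basement membrane genes, 44 had a negative log2 fold change, and 9 were lower (16.1%, against 8.38% of all genes) and 0 higher (11.3% of all genes) at an unadjusted p under 0.05. The median was −0.28, or −0.09 after the GC correction. With the correction 5 were lower and 1 higher, where 3.96% and 5.71% of all genes were. Col3a1, a fibrillar collagen, was at 3.42 to 8.32 CPM in trained, 5.01 to 12.3 CPM in CSDS and 6.91 to 13.7 CPM in control libraries (−0.65 ± 0.22, corrected −0.68). Markers of adjoining tissue varied between libraries. All 23 choroid plexus genes tested had a negative log2 fold change, with a median of −0.63 and 0 at an unadjusted p under 0.05, and their mean level spanned 1.03 to 5.77 log2 CPM in trained, 1.69 to 6.09 in CSDS and 4.67 to 5.94 in control libraries. Of 19 thalamic genes 18 were positive, with a median of 1.14 against CSDS and 0.01 against control, and a mean level of 3.34 to 6.16 log2 CPM in trained, 3.32 to 3.78 in CSDS and 3.47 to 5.69 in control libraries. The part of adjoining tissue in the list values was not tested.

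**Figure D4:**
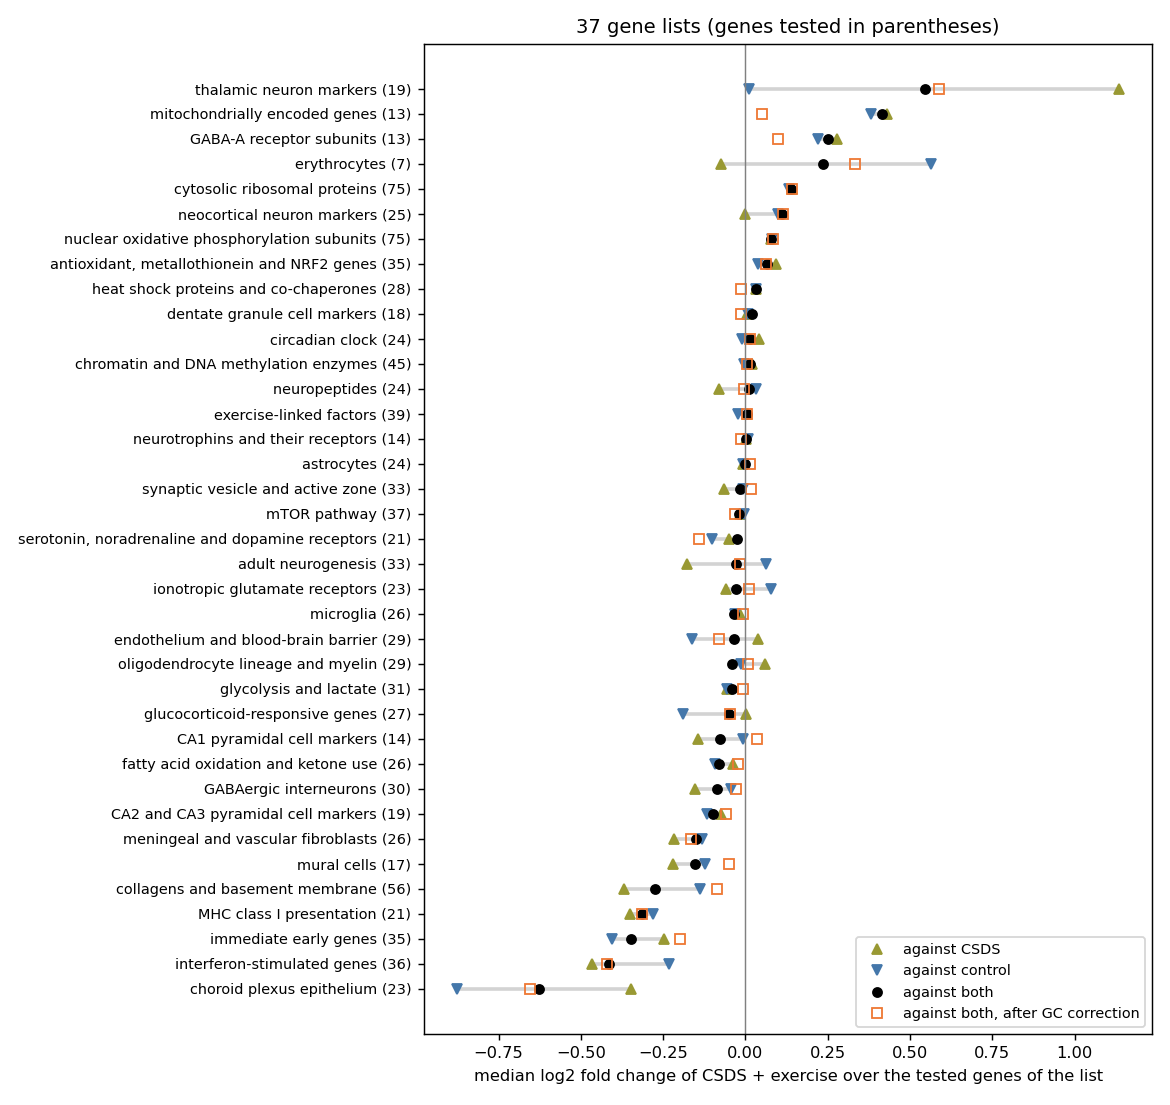
Median log2 fold change of trained mice (horizontal axis) over the tested genes of each of 37 lists, against CSDS, against control, against both, and against both after the GC correction. The immediate early list lies at −0.35 and moves to −0.20 with the correction, class I presentation stays near −0.31, and the thalamic list lies at 1.14 against CSDS and 0.01 against control.

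In the mTOR pathway, 6 of 37 genes were higher (16.2%, against 11.3% of all genes) and 5 lower (13.5%, against 8.38%) at an unadjusted p under 0.05. With the GC correction these were 2 and 2, where 5.71% of all genes were higher and 3.96% lower. Akt1s1, the mTORC1 subunit also known as PRAS40, was at 30.4 to 42.2 CPM in trained and 37.7 to 56.6 CPM in sedentary libraries (−0.43, corrected −0.06). Rictor, the defining subunit of mTORC2, was at 39.2 to 50.7 CPM against 34.3 to 43.9 CPM (0.27, corrected 0.06). The antioxidant gene Gclm, a subunit of the enzyme that starts glutathione synthesis, was at 0.28 (corrected 0.19), and Keap1, the inhibitor of NRF2, at −0.29 (corrected −0.06). Of the 35 antioxidant, metallothionein and NRF2 genes tested, 1 was higher (2.86%, against 11.3% of all genes) at an unadjusted p under 0.05. At that threshold 2 were lower (5.71%, against 8.38% of all genes), so neither share exceeded that of all genes. With the correction 2 were higher and 1 lower, where 5.71% and 3.96% of all genes were.

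All 13 protein genes of the mitochondrial genome had positive values, with a median of 0.41, and 3 were higher at an unadjusted p under 0.05 (23.1%, against 11.3% of all genes): mt-Nd4l (1.34 ± 0.34), mt-Atp6 (1.02 ± 0.31) and mt-Nd3 (0.85 ± 0.38). Their transcripts are rich in A and T, with a median GC content of 37.1%, and the median of the 13 was 0.05 after the GC correction. These 3 are among 7 mitochondrial genes with a copy in the nuclear genome that holds at least 80% of its own 31-base words in common with the mitochondrial gene, so reads can be divided between gene and copy. mt-Nd4l was at 21.3 to 110 CPM in trained (median 81.6), 16.1 to 50.5 CPM in CSDS (median 33.8) and 9.38 to 44.5 CPM in control libraries, while its copy Gm10222, which shares 100% of its words, was at medians of 222, 253 and 254 CPM. Summed, gene and copy came to 301 ± 101 CPM in trained (n = 6), 289 ± 79.3 CPM in CSDS (n = 6) and 267 ± 82.5 CPM in control libraries (n = 5), with overlapping ranges. The sum for mt-Atp6 and its copy Gm10925 was 2316 ± 916, 1685 ± 705 and 1641 ± 575 CPM in the same order.

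**Figure D5:**
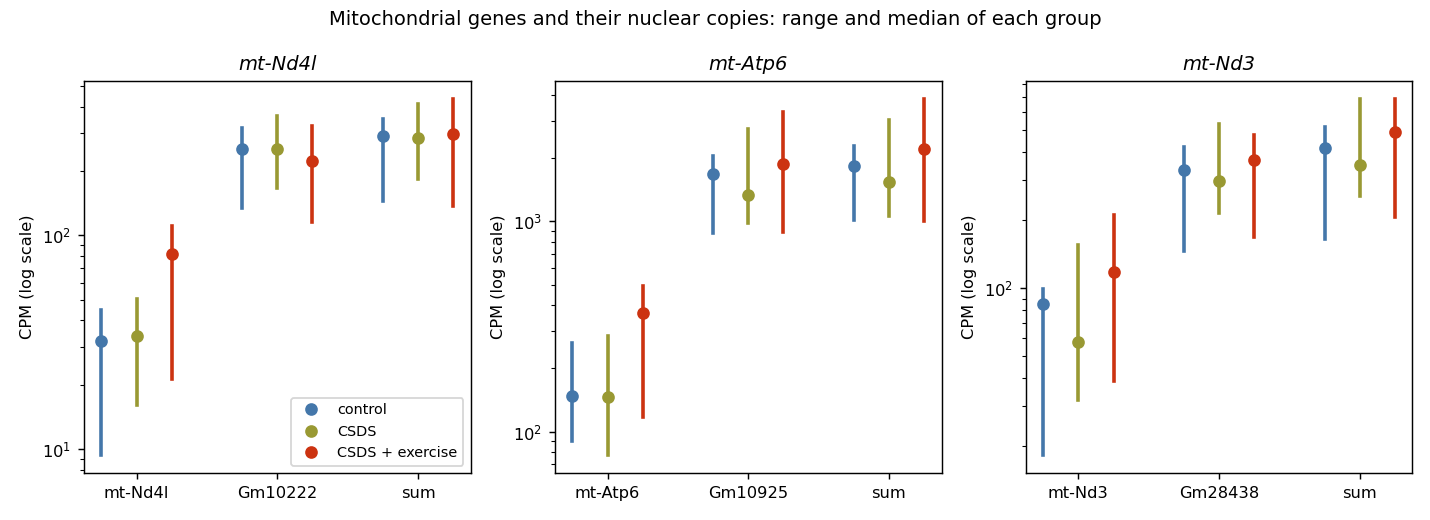
Range (line) and median (point) of CPM on a log axis in control, CSDS and trained libraries for 3 mitochondrial genes, their nuclear copies and the sums of each pair. For mt-Nd4l the trained median of 81.6 CPM lies above the others, and the summed ranges overlap.

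The same caution applies to the predicted genes with the smallest p. Gm29216, which shares 97.2% of its words with mt-Co1, was at 0.612 to 13.7 CPM in trained (median 1.76) and 9.47 to 279 CPM in CSDS libraries (median 215), with controls at 14.6, 16.2, 162, 123 and 18.3 CPM (−4.73 ± 0.92). Together with mt-Co1 it came to 14810 CPM on average in trained, 11839 in CSDS and 11995 in control libraries. Gm14205 was at 0 in 5 trained libraries and 0.138 CPM in the other, at 0.203 to 3.89 CPM in CSDS libraries, and at 0 in 2 of the control libraries, so no fold is given. Gm48415 (0.67), Gm32687 (0.96) and Gm47164 (0.60) were higher and 2310033P09Rik lower (−0.50); counts of predicted genes are uncertain.

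Leaving out trained replicate 4 and correcting for GC content at the same time left 11 genes called by edgeR against the sedentary mean, 4 higher and 7 lower. Lurap1l was at −0.67 (adjusted p = 0.0285) and Junb at −0.54 (adjusted p = 0.0374), both by edgeR. The others with a known function were named after their values were seen. Igsf9b, an adhesion molecule of inhibitory synapses, was at 0.67 and Scai, a repressor of MRTF-dependent transcription, at 0.62. Cebpb, a leucine zipper factor of inflammation and memory, was at −0.68, Bcl6, a transcriptional repressor, at −0.50, and Hexim1, the inhibitor of the elongation factor P-TEFb, at −0.41. With all 17 libraries and no correction these 5 were at 0.33, 0.65, −0.88, −0.32 and −0.31. Cebpb was at 4.80 to 15.5 CPM in trained (median 5.95; the highest is replicate 4), 7.59 to 18.2 CPM in CSDS and 9.001 to 19.5 CPM in control libraries, and Hexim1 at 56.1 to 77.1, 71.5 to 94.4 and 71.1 to 82.2 CPM. Trained replicate 4 was the highest trained library for Lurap1l, Junb, Cebpb, Bcl6 and Hexim1 and the lowest for Igsf9b and Scai. Leaving it out alone gave the most calls of any single library, 2261. No other library was left out together with the correction. These calls are thus partly built in by the choice of library. None of the 11 passed in the test against both groups, where 0 genes were called.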

How the data were processed

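RNA from the hippocampus of 18 mice was sequenced after poly(A) enrichment with a stranded kit, per the labels' protocols. The authors deposited 1 table of RSEM's estimated counts, a value per gene and library without normalization. The submitters' processing notes name fastp, HISAT2, RSEM and GRCm38 (mm10). For the versions, annotation release and strand setting, nothing is given in the sources used here. Since 22.7% of nonzero values had decimals, values were rounded before testing. Of 57180 gene identifiers, 51884 matched a symbol.

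Genes were tested in R 4.3.3 with edgeR 4.0.16 (quasi-likelihood F test, 1 term per group, TMM scaling, filterByExpr with a minimum count of 10 and total of 15) on 17 libraries. The contrast was the trained group minus the mean of the CSDS and control terms, with Benjamini-Hochberg adjustment over all genes tested. A gene had to show the same sign against both groups, and the larger of its 2 p-values was used. Log2 CPM used a prior count of 2. The GC correction smoothed each gene's deviation within a library (lowess, span 0.3) against its GC content, the median over its GENCODE M21 transcripts, and used the smooth as an offset; 98.1% of tested genes had a value. The scripts were tested on simulated data. Counts of the 40 replicate pairs differed by more than sampling noise allows, with a chi-square of 9.48 to 141 for each gene on average, and each library counts as 1 sample.

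Named genes, with a mean of at least 1 CPM and the same sign against both groups, were the 12 in each direction with the smallest p; up to 6 in each direction whose trained libraries lay outside all sedentary ones; 3 predicted genes in each direction; up to 4 of each of 37 lists; and 14 fixed genes whatever their values. Up to 15 called genes in each direction were also allowed, and this edgeR test of the 17 libraries called none. The comparison, lists and rule were chosen with earlier results of these data known, so nothing here is independent of them. Alternatives were DESeq2 1.42.0, limma voom 3.58.1, sva 3.50.0, other scalings and filters, a replicate block, GC correction, all 18 libraries, the sedentary libraries as 1 group, and leaving out each library.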

Additional observations from a re-analysis of the deposited data

Results flagged for a closer look

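A library was singled out when its gap to the nearest other library of its group was large for the range of that group (Dixon's 95% limit). This was so for 19 of 339 groups of values (5.6%), where chance gives about 1 in 20. Trained replicate 4 accounted for 7 of them. It was the highest trained library for Jund at 123 CPM, Keap1 at 102 CPM, Capn10 at 28.6 CPM, Tmem119 at 27.7 CPM and Cebpb at 15.5 CPM, and the lowest for mt-Atp6 at 117 CPM and mt-Nd4l at 21.3 CPM. The same library had a GC slope of 0.198, where the other 5 trained libraries were between −0.460 and −0.121, and its part in these values was not tested. Trained replicate 6 was the lowest for Dgkh at 108 CPM, and trained replicate 1 the only one with any count of Gm14205, at 0.138 CPM.

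Among sedentary libraries, control replicate 1 was the highest of its group for Malat1 at 157 CPM. Control replicate 5 was the lowest for Fndc5 at 72.2 CPM and Metrnl at 5.42 CPM, and control replicate 6 the lowest for Btg2 at 16.8 CPM and Ccdc61 at 5.81 CPM. CSDS replicate 4 was the lowest for Fos at 2.97 CPM and Btg2 at 15.7 CPM. CSDS replicate 2 was the highest for Lurap1l at 43.5 CPM and had the fewest genes detected in its group, 21933. CSDS replicate 5 had the lowest total of its group, 19552899.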

How the results depend on the processing

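Counts of calls depended on the tool and the libraries. Of 109 genes followed over 31 alternatives, 99 kept their sign in all of them and 10 did not. Apart from the 14 fixed genes, these were picked by their values in the same libraries, so keeping the sign is partly built in. The share over all genes was not counted. The test against both groups called 0 genes under every alternative run. DESeq2 called 548 genes against the sedentary mean, 327 against CSDS and 83 against control; voom called 3684, 5451 and 135, with 6270 at an unadjusted p under 0.05 and 2496 against both groups. The GC correction left 1629 and 465 genes at that level, 1283 and 369 with all 18 libraries, which called 1 gene against the sedentary mean and 1 against CSDS, and 11 calls (1 against control) with trained replicate 4 left out as well. All 18 libraries without it gave 3 calls against control and 9 genes outside the sedentary range. A surrogate variable gave 2 calls and 3 against CSDS, and no filter on low counts 2 against CSDS. Leaving out 1 library at a time gave 0 to 2261 calls against the sedentary mean, 0 to 1529 against CSDS and 0 to 24 against control. It left 2116 to 5493 genes at an unadjusted p under 0.05, 678 to 3082 against both groups, and 14 to 299 outside the sedentary range; the upper ends are without trained replicate 4, and the GC slope then differed by −0.334. The causes of these differences were not tested.

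With the replicate number as a block, edgeR called 0 genes, with 2598 at an unadjusted p under 0.05 and 814 against both groups; with the GC correction as well these were 1208 and 332. Same-numbered libraries of different groups had correlations of −0.413 to 0.272 in 16 pairs, 4 of them over 0.1. Differently numbered ones had −0.485 to 0.417 in 80 pairs, 29 of them over 0.1. Libraries of the same number were thus no more alike than others. Such correlations cannot show whether the numbers pair the mice in some other way.

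Of the 10 genes that changed sign, Slc32a1 (−0.36), Suz12 (0.31), Esrra (−0.30) and Igf1 (0.29) had reported differences as large as many named genes. Bdnf was at −0.0745 with the GC correction. With the correction and 1 further change it was at −0.163 (trained replicate 4 left out), −0.0851 (block) and −0.0156 (all 18 libraries). Gfap was at 0.014 with the correction, 0.0026 with correction and block, and 0.1076 with correction and all 18 libraries. Without the correction it was at 0.0114 with all 18 libraries and 0.0762 with the surrogate variable. Esrra was at 0.0221 with the correction, 0.1234 with correction and trained replicate 4 left out, and 0.0211 with correction and block. Without trained replicate 4 and with the correction, Slc32a1 was at 0.0482 and Suz12 at -2e-04. Hcar1 was at −0.0153 with the block, −0.0078 with the correction too and −0.0253 with voom. Fkbp5 was at 0.0358 with all 18 libraries, 0.0457 with the correction too, 0.021 with the surrogate variable and 0.0194 with voom. The surrogate variable put Igf1 at −0.0952 and Vegfa at 0.0597, and voom put Fndc5 at −0.0029. Leaving out 1 library gave −0.1248 to 0.1505 for Hcar1, −0.0369 to 0.0874 for Fndc5 and −0.1139 to 0.0334 for Fkbp5.

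Limits are 5 or 6 mice per group, a trait of base composition that moved with training, and adjoining tissue that varied between libraries. Genes near 1 CPM, such as Egr2, rest on few counts per library, which limits the precision of their fold changes.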
